A study of Homo sapiens with 2 samples.

Results

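The genes described here build and run the mitotic spindle's attachment to chromosomes: proteins of the centromere and kinetochore, the spindle checkpoint, the mitotic kinases with their partners, the ubiquitin pathway that ends metaphase, and cytokinesis. They were followed in H9, a long-established line of human embryonic stem cells. One culture had been treated for 48 h with siHNRNPA1, a small interfering RNA aimed at HNRNPA1, whose product hnRNP A1 regulates splicing, and the other for 48 h with sicontrol, a control small interfering RNA. Each condition has 1 RNA-seq library analysed here, and the labels do not say whether the siRNA was a single sequence or a pool. The members were taken by name from the deposited transcript table. Of 50 names, 49 were found, among 20263 genes in all, and KNTRK1 was not among the table's gene names. The 49 genes had 276 transcripts in the table. All 49 passed the expression filter, a mean of at least 1 FPKM (fragments scaled to transcript length and to library size) over both libraries, as did 11921 of all genes.

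Depth was 28147828 estimated counts with siHNRNPA1 and 26680342 with sicontrol. With 1 library per condition there is no estimate of the spread between cultures, no test can be made, and every difference below is without a replicate check. HNRNPA1, the targeted gene, had 179.9 FPKM with siHNRNPA1, against 663 FPKM with sicontrol, or 27.1% of that level. Of 10 pluripotency markers DPPA4 and SOX2 were at least 2-fold lower with siHNRNPA1 and 8 were within 2-fold. By direction alone, 6 of the 10 were lower and 4 higher. POU5F1 had 1355 FPKM with siHNRNPA1 and 864 FPKM with sicontrol. The 10 genes summed to 2508 FPKM with siHNRNPA1 and 2294 FPKM with sicontrol. All 10 listed markers of pluripotent stem cells passed the filter in these libraries, with LIN28A, an RNA-binding protein of stem cells, at 307 FPKM with siHNRNPA1 and 309 FPKM with sicontrol. Of 4 neural markers, NES and TUBB3 passed the filter and both were over 2-fold higher with siHNRNPA1. The list summed to 212 FPKM there and to 76.5 FPKM with sicontrol, while the neural factors PAX6 and SOX1 stayed below 1 FPKM in both. The fibroblast list summed to 218 FPKM with siHNRNPA1 and 264 FPKM with sicontrol, with DCN, LUM and COL3A1 listed at 0 in both. Most of that sum was THY1, at 181.5 FPKM with siHNRNPA1 and 232.5 FPKM with sicontrol, while COL1A1 had 25.0 FPKM with siHNRNPA1 and 14.5 FPKM with sicontrol. Of 6 mesendoderm markers none passed the filter, and of 6 trophoblast and amnion markers KRT7 alone did. The mesendoderm marker FOXA2 had 1.52 FPKM (123 counts) with siHNRNPA1 and 0 with sicontrol, so its mean fell short of the filter. The other 5 mesendoderm markers were below 1 FPKM in both libraries. The part of other cell types in the results was not tested.

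As background, the centromere is marked by nucleosomes that hold the histone variant CENPA. A constitutive network of CENP proteins sits on them through the cell cycle, and the outer kinetochore, with the NDC80 complex at its tip, is built on that network in mitosis and grips microtubules. Kinetochores without microtubules feed the spindle checkpoint, in which TTK, BUB1, BUB1B, BUB3 and MAD proteins hold CDC20 away from the anaphase-promoting complex (APC/C). Once the checkpoint is silent, the APC/C marks securin and cyclin B for destruction, separase cuts cohesin, and the cell divides. Many of these genes are transcribed mainly in G2 and mitosis, so that their RNA in a bulk sample depends on how many cells are in those phases as well as on the RNA per cell. In bulk RNA fewer cells of a phase and less RNA per cell cannot be told apart.

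Of the 49 mitotic genes, 33 had a log2 fold below 0 and 16 above 0, as did 6533 and 5388 of the 11921 genes kept, and the values varied between roles. Folds are given as log2((siHNRNPA1 FPKM + 1)/(sicontrol FPKM + 1)), which understates the difference of weakly expressed genes. By a 2-fold limit, 22 of the 49 genes were at least 2-fold lower, 2 (CENPM and CENPO) were at least 2-fold higher and 25 were within 2-fold. Of all genes kept, 21.9% lay that far below and 12.4% that far above. The median log2 fold was -0.61 over the mitotic genes and -0.13 over all genes kept. The 49 genes summed to 1516 FPKM with siHNRNPA1 and to 1933 FPKM with sicontrol. The 6 genes with the highest mean level, CDC20, UBE2C, PTTG1, PLK1, CCNB1 and AURKB, were all within 2-fold.

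**Figure D1:**
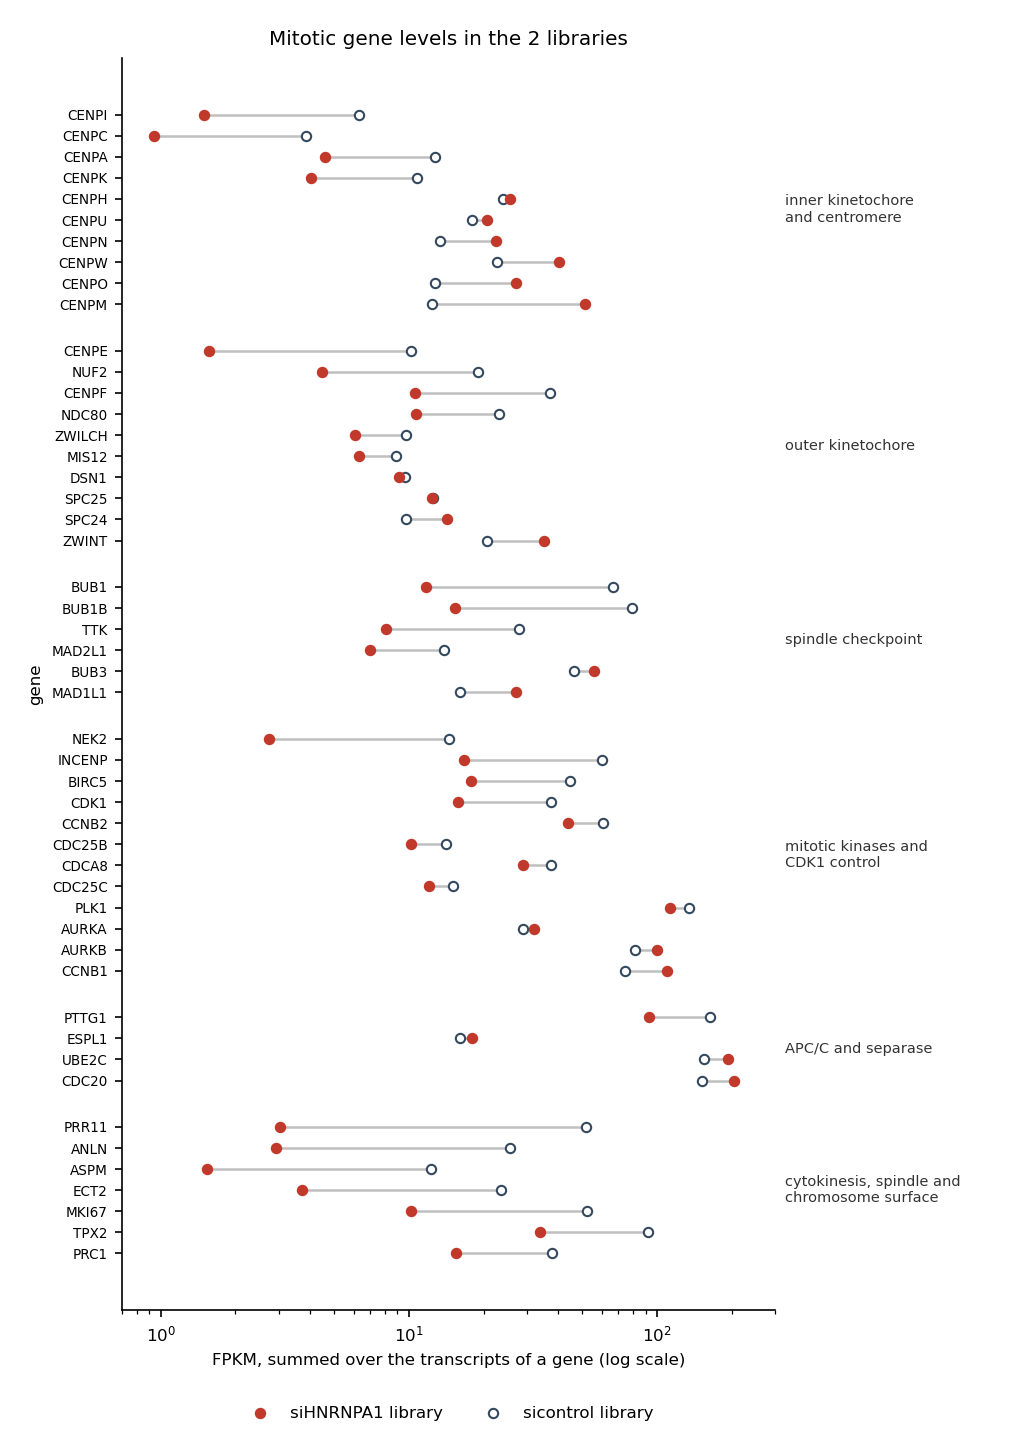
FPKM of each mitotic gene, summed over its transcripts, on a log axis, with 1 filled point for the siHNRNPA1 library and 1 open point for the sicontrol library, joined by a line and grouped by role. All 7 genes of the cytokinesis, spindle and chromosome surface group have their siHNRNPA1 point far to the left, whereas CENPM and CENPO have it to the right.

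The 7 genes of cytokinesis, the spindle and the chromosome surface were all at least 2-fold lower, as were 21.9% of all genes kept. Their median log2 fold was -2.38. After the adjustment for length, GC content and expression described further on, 4 of them were 2-fold lower, as were 7.88% of all genes. The median was then -1.16, and TPX2 (-0.58), ASPM (-0.82) and PRC1 (-0.82) were within 2-fold. PRR11, a proline-rich protein linked to cell cycle progression (ENSG00000068489, chr17:59155499-59204705 on GRCh38), had 3.02 FPKM with siHNRNPA1, against 51.7 FPKM with sicontrol. That was 5.84% of the sicontrol level, the lowest share among the 49 genes, and a log2 fold of -3.71. Its estimated counts were 222 with siHNRNPA1 and 3077 with sicontrol, a log2 ratio of count shares of -3.87 with a 95% counting interval of -4.07 to -3.67. PRR11 shares exon sequence on the same strand with AC099850.2, which was listed at 0.228 FPKM with siHNRNPA1 and at 0 with sicontrol. Its neighbour on the chromosome, the kinetochore gene SKA2, had 15.2 FPKM with siHNRNPA1 and 17.5 FPKM with sicontrol.

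ANLN, the actin-binding scaffold anillin of the cleavage furrow, had 2.90 FPKM with siHNRNPA1, against 25.7 FPKM with sicontrol (log2 fold -2.77). ASPM, a spindle pole protein and microcephaly gene, had 1.54 FPKM with siHNRNPA1 and 12.3 FPKM with sicontrol (-2.39). ECT2, the exchange factor that activates RhoA at the furrow, had 3.70 FPKM with siHNRNPA1 and 23.5 FPKM with sicontrol (-2.38). These 3 genes and PRR11 had the lowest folds of the group. MKI67, which encodes the Ki-67 antigen that coats mitotic chromosomes, had 10.2 FPKM with siHNRNPA1, against 52.3 FPKM with sicontrol (-2.24). TPX2, which activates Aurora A and nucleates spindle microtubules, had 33.9 FPKM with siHNRNPA1 and 92.4 FPKM with sicontrol (-1.42). PRC1, which bundles microtubules of the central spindle, had 15.5 FPKM with siHNRNPA1 and 37.7 FPKM with sicontrol (-1.23).

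Among the 6 spindle checkpoint genes 3 lay 2-fold or more below sicontrol and none 2-fold above, with a median log2 fold of -1.28. The kinase BUB1 (ENSG00000169679, chr2:110637698-110678114) had 11.8 FPKM with siHNRNPA1, against 66.8 FPKM with sicontrol, and a log2 fold of -2.41. BUB1B, which encodes BUBR1, the checkpoint protein that binds CDC20, had 15.4 FPKM with siHNRNPA1, against 79.2 FPKM with sicontrol (-2.29). It shares exons on the same strand with the readthrough gene BUB1B-PAK6, which had 0.0598 FPKM with siHNRNPA1 and 2.27 FPKM with sicontrol. The kinase TTK, also called MPS1, which starts checkpoint signalling at kinetochores, had 8.10 FPKM with siHNRNPA1 and 27.9 FPKM with sicontrol (-1.67). The other checkpoint genes did not pass 2-fold. MAD2L1, which encodes the CDC20 inhibitor MAD2, had 6.97 FPKM with siHNRNPA1 and 13.8 FPKM with sicontrol (-0.90). MAD1L1, which recruits MAD2, had 27.1 FPKM with siHNRNPA1 and 16.1 FPKM with sicontrol (0.71). BUB3, the partner of both BUB proteins, had 55.9 FPKM with siHNRNPA1 and 46.5 FPKM with sicontrol (0.26). BUB3 was lower by counts, with 3886 with siHNRNPA1 and 4942 with sicontrol, and so differed in sign between the measures. BUB3-201, its short transcript of 1361 nucleotides, made up 87.4% of the gene's FPKM with siHNRNPA1 and 64.2% with sicontrol.

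**Figure D2:**
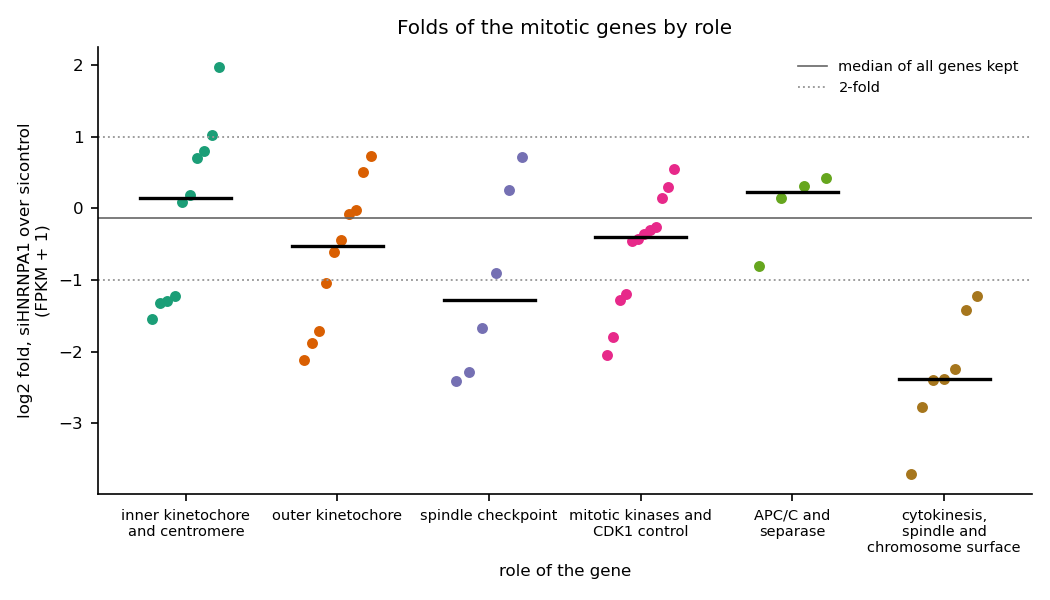
Log2 fold (siHNRNPA1 over sicontrol, FPKM + 1) of each mitotic gene by role, 1 point per gene, with a bar at the median of each role, a thin line at the median of all genes kept and dotted lines at 2-fold. Every gene of the last role lies below the lower dotted line, while the inner kinetochore genes spread from -1.54 to 1.97.

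Genes of the inner kinetochore and centromere lay on both sides. Of 10 genes, 4 passed 2-fold downward and 2 upward, with a median log2 fold of 0.14. The lower genes were CENPI (-1.54), CENPC, the scaffold that joins CENPA nucleosomes to the outer kinetochore (-1.32), CENPA itself (-1.30) and CENPK (-1.23). CENPI had 1.498 FPKM with siHNRNPA1, against 6.29 FPKM with sicontrol. CENPK had 4.02 FPKM with siHNRNPA1, against 10.7 FPKM with sicontrol. Both belong to the constitutive network. CENPA had 4.61 FPKM with siHNRNPA1, against 12.8 FPKM with sicontrol, and shares exon sequence on the same strand with SLC35F6. CENPC, at 0.936 FPKM with siHNRNPA1 and 3.83 FPKM with sicontrol, was the weakest of the 49 genes and the 1 member below 1 FPKM in a library. Its counts, 108 with siHNRNPA1 and 630 with sicontrol, gave a log2 ratio of -2.62 (95% counting interval -2.93 to -2.33).

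On the other side, CENPM, a small member of the constitutive network, had 51.4 FPKM with siHNRNPA1, against 12.3 FPKM with sicontrol. Its log2 fold of 1.97 was the highest of the 49 genes. CENPO had 27.1 FPKM with siHNRNPA1 and 12.7 FPKM with sicontrol (1.03). It came within 2-fold in 3 alternatives, at 0.91 by TPM, 0.85 with a pseudocount of 5 FPKM and 0.32 with only its most abundant transcript. CENPO overlaps exons of ADCY3 and PTRHD1 on the opposite strand. CENPW, which pairs with CENPT as a histone-fold dimer, had 40.5 FPKM with siHNRNPA1 and 22.7 FPKM with sicontrol (0.80). CENPN, which reads the CENPA nucleosome, had 22.5 FPKM with siHNRNPA1 and 13.4 FPKM with sicontrol (0.71). Both were within 2-fold. CENPU had 20.6 FPKM with siHNRNPA1 and 17.9 FPKM with sicontrol (0.19). CENPH had 25.6 FPKM with siHNRNPA1 and 23.9 FPKM with sicontrol (0.09). CENPH, CENPI, CENPK and CENPM act in 1 complex in vertebrates, and these 4 genes ranged from -1.54 to 1.97.

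In the outer kinetochore 4 of 10 genes lay 2-fold or more below sicontrol and none 2-fold above, with a median log2 fold of -0.52. After the adjustment for length, GC content and expression described further on, 1 gene was 2-fold lower and the median turned to 0.13. The mitotic kinesin CENPE had 1.57 FPKM with siHNRNPA1, against 10.2 FPKM with sicontrol (-2.12). NUF2 had 4.45 FPKM with siHNRNPA1 and 19.0 FPKM with sicontrol (-1.88). CENPF, a large protein of the fibrous corona, had 10.6 FPKM with siHNRNPA1 and 37.1 FPKM with sicontrol (-1.72). NDC80 had 10.7 FPKM with siHNRNPA1 and 23.2 FPKM with sicontrol (-1.05). The NDC80 complex is a tetramer of rods, and its subunits differed: NDC80 and NUF2, which hold the microtubule, were at least 2-fold lower, whereas SPC25 (-0.02) and SPC24 (0.50), which face the chromosome, were within 2-fold. The call of NDC80 was borderline: its fold was -0.90 after median ratio scaling, -0.85 with a pseudocount of 5 FPKM and -0.41 after the adjustment, where SPC24 stood at -0.01 and SPC25 at 0.28. SPC25 had 12.4 FPKM with siHNRNPA1 and 12.6 FPKM with sicontrol. SPC24 had 14.2 FPKM with siHNRNPA1 and 9.72 FPKM with sicontrol. DSN1 and MIS12 belong to the complex that links inner and outer kinetochore. DSN1 had 9.12 FPKM with siHNRNPA1 and 9.66 FPKM with sicontrol (-0.07). MIS12 had 6.27 FPKM with siHNRNPA1 and 8.84 FPKM with sicontrol (-0.44). ZWILCH, of the complex that brings dynein to kinetochores, had 6.05 FPKM with siHNRNPA1 and 9.73 FPKM with sicontrol (-0.61). All 3 were within 2-fold. ZWINT, which binds the scaffold KNL1, stood at 0.74, with 35.1 FPKM with siHNRNPA1 and 20.7 FPKM with sicontrol.

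Of the 12 mitotic kinases, their partners and regulators of CDK1, 4 passed 2-fold downward and none upward, with a median of -0.39. The 4 subunits of the chromosomal passenger complex, which corrects wrong attachments, separated. INCENP, its scaffold, had 16.6 FPKM with siHNRNPA1, against 60.1 FPKM with sicontrol (-1.79). BIRC5, which encodes survivin, had 17.8 FPKM with siHNRNPA1 and 44.6 FPKM with sicontrol (-1.28). CDCA8, which encodes borealin, had 28.9 FPKM with siHNRNPA1 and 37.5 FPKM with sicontrol (-0.36). The kinase AURKB had 100.1 FPKM with siHNRNPA1 and 81.5 FPKM with sicontrol (0.29). After the same adjustment all 4 lay below 0: INCENP at -2.13, BIRC5 at -1.39, AURKB at -0.57 and CDCA8 at -0.43. NEK2, a centrosome kinase, had 2.74 FPKM with siHNRNPA1 and 14.5 FPKM with sicontrol (-2.05).

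CDK1, the kinase that drives entry into mitosis, had 15.8 FPKM with siHNRNPA1, against 37.5 FPKM with sicontrol (-1.19). Its partner CCNB1, cyclin B1, had 109.5 FPKM with siHNRNPA1 and 74.5 FPKM with sicontrol (0.55), so that kinase and cyclin lay on opposite sides of 0. CCNB2, cyclin B2, had 44.0 FPKM with siHNRNPA1 and 60.7 FPKM with sicontrol (-0.46). The phosphatases that activate CDK1 were within 2-fold. CDC25B had 10.2 FPKM with siHNRNPA1 and 14.1 FPKM with sicontrol (-0.42). CDC25C had 12.04 FPKM with siHNRNPA1 and 15.1 FPKM with sicontrol (-0.30). AURKA, the spindle pole kinase activated by TPX2, had 32.1 FPKM with siHNRNPA1 and 28.9 FPKM with sicontrol (0.14). PLK1, a kinase of centrosomes, kinetochores and the midzone, had 112.7 FPKM with siHNRNPA1 and 134.7 FPKM with sicontrol (-0.26), but 8142 counts with siHNRNPA1 and 7281 with sicontrol.

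None of the 4 genes around the APC/C and separase passed 2-fold, and their median log2 fold was 0.23, which turned to -0.28 after the same adjustment. CDC20, the APC/C activator and target of the checkpoint, had 204 FPKM with siHNRNPA1 and 152 FPKM with sicontrol (0.42). UBE2C, the ubiquitin-conjugating enzyme of the APC/C, had 193 FPKM with siHNRNPA1 and 154 FPKM with sicontrol (0.32). ESPL1, separase, had 17.9 FPKM with siHNRNPA1 and 16.1 FPKM with sicontrol (0.15). PTTG1, its inhibitor securin, had 93.0 FPKM with siHNRNPA1 and 163 FPKM with sicontrol (-0.80). The counting interval of the log2 ratio had a half-width of at most 0.31 for any of the 49 genes. Intervals treat each estimated count as 1 read and cover counting error only. Near 0 the sign depended on the scale: CENPH and AURKA were below 0 by TPM, SPC25 and DSN1 above 0 after median ratio scaling, and PLK1 above 0 by counts. CENPA, CENPC, CENPI, CENPK and NDC80 came within 2-fold with a pseudocount of 5 FPKM. Besides CENPO, exons of PRR11, ANLN, NUF2, CENPU, CDC25C, SPC24, MAD2L1, CENPN, PLK1, MIS12, ZWILCH and PRC1 overlap another gene on the opposite strand, and PRC1 overlaps 1 on the same strand. ZWILCH overlaps the abundant ribosomal protein gene RPL4. Whether counting used strand is not stated, so reads of such pairs cannot be told apart.

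Other genes of these pathways were taken from lists made with earlier results of these data known. Over all genes kept, 21.9% passed 2-fold downward and 12.4% upward. Of 19 other cytokinesis and spindle genes 12 passed 2-fold downward and none upward (median log2 fold -1.21), among them CKAP5, a microtubule polymerase (-2.37), CKAP2L (-2.07), DLGAP5 (-1.87) and CEP55, which acts in abscission (-1.77). Of 26 other mitotic kinases and CDK1 regulators 9 passed 2-fold downward and 3 upward (median -0.84). The cyclin CCNA2 (-1.71), the centriole kinase PLK4 (-1.67), BORA, a cofactor of Aurora A (-1.61), and the kinase MASTL (-1.48) had the largest absolute folds. The 3 genes that passed upward were FOXM1 (1.47), PKMYT1 (1.46) and LIN37 (1.35). Of 9 other checkpoint and cohesion protection genes 3 passed 2-fold downward and 1 upward (median -0.66). SGO2, a protector of centromeric cohesion, stood at -1.96, BUB1B-PAK6 at -1.62, MAD2L1BP, which helps to switch the checkpoint off, at 1.58, and TPR at -1.32. After the same adjustment 7.88% of all genes were lower and 7.97% higher. Of the cytokinesis and spindle list 4 genes were then lower and none higher (median -0.44). CKAP5 (-1.20) stayed lower, while CEP55 (-0.86), DLGAP5 (-0.82) and CKAP2L (-0.74) came within 2-fold. Of the kinase list 3 were lower and 1, FOXM1 (1.43), higher (median -0.33). BORA (-1.13) stayed lower, while CCNA2 (-0.76), PLK4 (-0.51) and MASTL (-0.45) came within 2-fold. Of the checkpoint list 1 was lower and 1 higher (median -0.18). The lower gene was the readthrough gene BUB1B-PAK6, which shares exons with the member BUB1B. It had 6 counts with siHNRNPA1 and 175 with sicontrol. The adjusted folds were -0.61 for SGO2, -1.82 for BUB1B-PAK6, 1.08 for MAD2L1BP and 0.02 for TPR.

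Of 24 other kinetochore genes 4 passed 2-fold downward and 5 upward (median -0.18). CENPX, a small histone-fold protein, stood at 2.34 and CENPB, which binds centromeric repeats, at 1.59, while KNTC1, which acts with ZWILCH at kinetochores, stood at -1.61. Among 18 APC/C subunits and regulators 5 passed 2-fold downward and 2 upward (median 0.22). The inhibitor FBXO5 (-1.66) and the subunit CDC23 (-1.36) were lower, and the catalytic core subunits ANAPC11 (1.33) and ANAPC2 (1.29) higher. After the adjustment 1 of the 24 kinetochore genes was 2-fold lower and 4 were higher (median 0.23). CENPX then stood at 1.28, CENPB at 0.89 and KNTC1 at -0.16. Of the 18 APC/C genes none was then lower and 2 were higher (median 0.06). FBXO5 stood at -0.92, CDC23 at -0.32, ANAPC11 at 0.21 and ANAPC2 at 0.65. Replication genes, which act in S phase, had other values: of 32 measured, none was at least 2-fold lower and 6 were higher, with a median of 0.21, against -0.61 over the 49 mitotic genes. After the adjustment none was lower and 4 were higher, with a median of 0.50, against -0.43 over the mitotic genes. E2F1, a transcription factor of S-phase genes, had 43.2 FPKM with siHNRNPA1 and 14.7 FPKM with sicontrol. Before the adjustment E2F1 led the list, followed by GINS2 (1.37), MCM5 (1.31) and MCM7 (1.30). After it GINS2 stood at 1.62, while MCM7 (0.98), E2F1 (0.95) and MCM5 (0.79) were within 2-fold. With 1 library per condition the difference between these lists was not tested.

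The folds of the mitotic genes went with transcript length. Length and GC content were averaged over the transcripts of a gene, weighted by FPKM. Of 16 mitotic genes with at least 3000 nucleotides, 12 were at least 2-fold lower, with a median log2 fold of -1.76. Of 11 genes from 2000 to 3000 nucleotides 5 were at least 2-fold lower (median -0.44), and of 22 genes below 2000 nucleotides 5 were (median 0.12). All genes kept had the same order: 36.4% of genes with at least 3000 nucleotides were at least 2-fold lower, 17.7% of those from 2000 to 3000 and 6.05% of the shorter ones, with medians of -0.67, -0.05 and 0.43. CENPO (4201 nucleotides, log2 fold 1.03) and ESPL1 (6452 nucleotides, 0.15) were long members with a fold above 0, whereas the long members MAD2L1 (-0.90) and ZWILCH (-0.61) were lower by less than 2-fold. CENPO and ESPL1 both had a GC content above 50%, at 53.8% for CENPO and 57.7% for ESPL1.

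**Figure D3:**
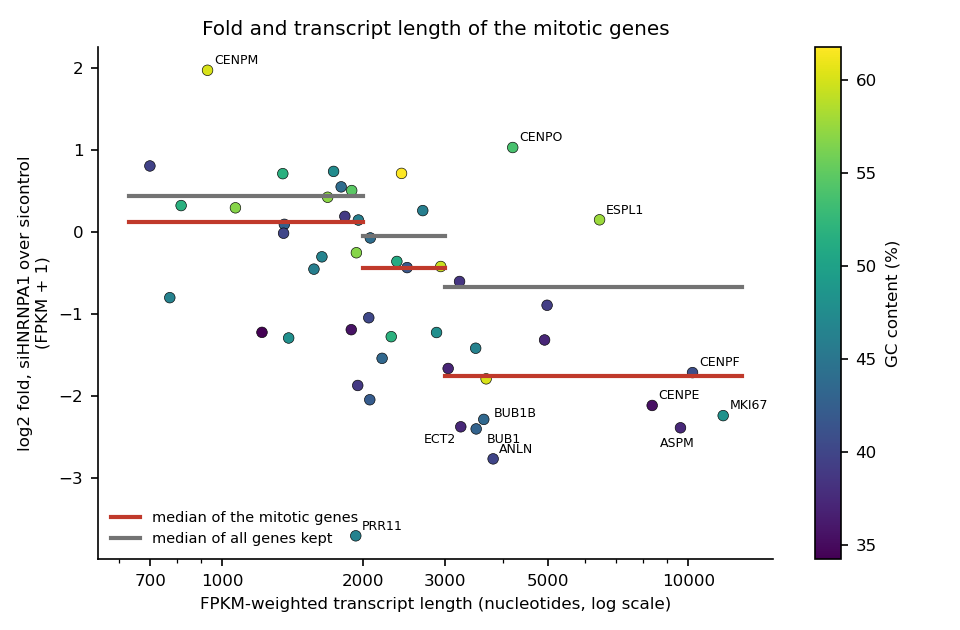
Log2 fold (siHNRNPA1 over sicontrol, FPKM + 1) of each mitotic gene against its FPKM-weighted transcript length on a log axis, coloured by GC content. Bars mark the median fold below 2000 nucleotides, from 2000 to 3000 and above, for the mitotic genes (0.12, -0.44 and -1.76) and for all genes kept (0.43, -0.05 and -0.67).

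Base composition went with the fold as well. Of 13 mitotic genes with a GC content below 40%, 9 were at least 2-fold lower, and of 14 with at least 50%, 2 were. The corresponding shares of all genes kept were 52.4% and 6.91%. Across the 49 genes, which share both libraries and are not independent, the Spearman rank correlation (rho) of the fold was -0.54 with length and 0.47 with GC content, and over 11920 genes kept with a sequence it was -0.49 and 0.58. The 2 lower genes with a GC content of at least 50% were INCENP (60.1%, log2 fold -1.79) and BIRC5 (51.9%, -1.28).

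Each gene was also compared with genes like it: the median fold of the 100 genes closest in length, GC content and mean level was taken off its own. By this measure 13 of the 49 genes lay 2-fold or more below 0 and 2 above it, with a median of -0.43, while 7.88% of all genes were lower and 7.97% higher. PRR11 (-3.62), INCENP (-2.13), ANLN (-1.51), NEK2 (-1.44), PTTG1 (-1.40), BIRC5 (-1.39), CENPA (-1.36), BUB1 (-1.28), NUF2 (-1.23), MKI67 (-1.22), BUB1B (-1.20), ECT2 (-1.16) and CENPI (-1.04) were the lower genes. PTTG1 had not passed 2-fold before the subtraction. The other 10 genes that had been 2-fold lower came within 2-fold, among them the long genes CENPF (-0.29), CENPE (-0.67) and ASPM (-0.82) and the scaffold CENPC (-0.23). CENPM (1.03) and CENPO (1.05) stayed at least 2-fold higher. The subtraction turned the sign of 9 genes within 2-fold, and MAD2L1 moved from -0.90 to 0.50. By role the medians were -1.16 for cytokinesis, spindle and chromosome surface, -0.57 for kinases and CDK1 control, -0.28 for the APC/C and separase, -0.24 for the checkpoint, 0.13 for the outer and 0.21 for the inner kinetochore. The medians of the outer kinetochore and of the APC/C and separase thus changed sign.

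**Figure D4:**
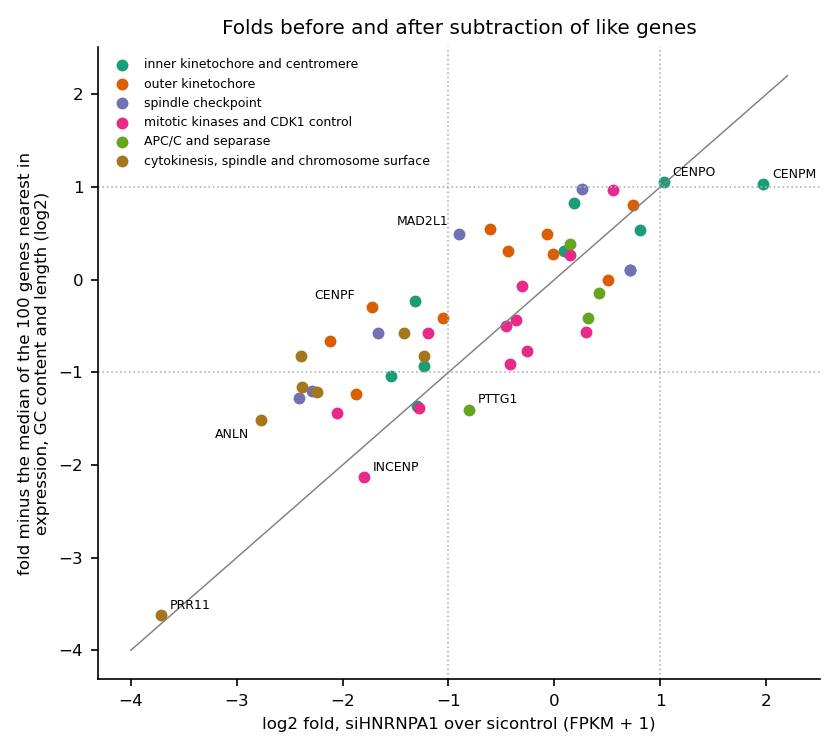
For each mitotic gene, the fold after subtraction of the median fold of the 100 genes most like it in length, GC content and expression, against the log2 fold before it (siHNRNPA1 over sicontrol, FPKM + 1), coloured by role, with dotted lines at 2-fold and a diagonal of equal values. PRR11 and INCENP keep their distance from 0 on both axes, while CENPF and MAD2L1 lie well above the diagonal.

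Promoters are described because many of the members lay on the same side. Mitotic genes are known for a short element near the transcription start, the cell cycle genes homology region (CHR), often accompanied by CCAAT boxes. In quiescent and G1 cells the CHR is bound by the repressive DREAM complex, and in G2 by MuvB complexes with B-MYB and FOXM1. The CHR was searched as the letters TTTGAA, which read TTCAAA when the element lies on the opposite strand. The box was searched as CCAAT, which then reads ATTGG. The window was the 250 bases before the RefSeq start of each gene on GRCh38.p14, for the 41 of 49 genes with an entry. The CHR letters, on either strand, were found in 18 of the 41 windows (43.9%) and in 13.6% of 27305 windows of the same length over all genes. The CCAAT letters were found in 29 windows (70.7%), against 33.0% over all genes, and both motifs together in 16 of the 41 windows, against 4.85% over all genes.

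Of the 18 genes with the CHR letters 11 were at least 2-fold lower, with a median log2 fold of -1.26, and of the 23 without them 8 were, with a median of -0.44. For the CCAAT letters the medians were close: of 29 genes with them 13 were at least 2-fold lower (median -0.80), and of 12 without them 6 were (median -0.83). Of all genes kept, with or without the letters, 21.9% were at least 2-fold lower. The folds of all genes were not split by these letters, and the splits were not adjusted for length or GC content. Whether the letters go with the fold was therefore not tested. The windows of the 2 genes with the lowest and the 2 with the highest folds among those 18 are shown because genes with the same letters lay at both ends. They read 5′ to 3′ on the strand of the gene, end 1 base before the start, and have both motifs in capitals. None of the matches overlaps another in them.
PRR11, chr17:59155496-59155745, plus strand, log2 fold -3.71: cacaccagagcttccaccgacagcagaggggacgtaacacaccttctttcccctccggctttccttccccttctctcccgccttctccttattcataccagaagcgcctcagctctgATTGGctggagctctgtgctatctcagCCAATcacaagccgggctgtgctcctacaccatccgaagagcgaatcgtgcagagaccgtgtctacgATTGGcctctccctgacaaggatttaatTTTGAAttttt
ANLN, chr7:36389612-36389861, plus strand, log2 fold -2.77: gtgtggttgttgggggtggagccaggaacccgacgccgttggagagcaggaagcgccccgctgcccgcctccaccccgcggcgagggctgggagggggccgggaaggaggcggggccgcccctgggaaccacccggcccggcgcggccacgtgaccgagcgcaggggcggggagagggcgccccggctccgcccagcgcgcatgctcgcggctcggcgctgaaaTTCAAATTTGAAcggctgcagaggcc
CDC20, chr1:43358731-43358980, plus strand, log2 fold 0.42: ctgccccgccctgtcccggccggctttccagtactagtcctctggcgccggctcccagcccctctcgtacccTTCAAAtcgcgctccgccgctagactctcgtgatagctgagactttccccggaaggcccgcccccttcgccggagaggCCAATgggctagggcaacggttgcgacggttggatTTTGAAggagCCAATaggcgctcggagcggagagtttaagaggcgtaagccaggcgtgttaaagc
ZWINT, chr10:56361260-56361509, minus strand, log2 fold 0.74: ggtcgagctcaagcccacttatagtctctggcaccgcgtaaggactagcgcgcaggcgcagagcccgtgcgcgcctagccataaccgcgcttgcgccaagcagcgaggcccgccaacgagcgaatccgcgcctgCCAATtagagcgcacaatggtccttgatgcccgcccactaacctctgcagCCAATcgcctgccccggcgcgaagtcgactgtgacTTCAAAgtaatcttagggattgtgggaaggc
The TTTGAA of PRR11 begins 11 bases before the start, with CCAAT or ATTGG 133, 106 and 39 bases before it. ANLN has TTCAAA and TTTGAA side by side, beginning 26 and 20 bases before the start, and no CCAAT. CDC20 has TTCAAA 178 bases before the start, and its TTTGAA begins 65 bases before the start, between CCAAT boxes 100 and 55 bases before it. In ZWINT TTCAAA begins 31 bases before the start, with CCAAT boxes 116 and 66 bases before it. A match is a run of letters and no evidence of binding. The earliest start among the deposited transcripts of each of these genes lies inside its window, upstream of the RefSeq start used here. For PRR11 it is chr17:59155499, so nearly all of that window lies within the gene as deposited.

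HNRNPA1 encodes a splicing regulator, and the transcript composition of several mitotic genes differed between the libraries. A transcript's share is its percentage of the gene's FPKM. Shares were compared for the 38 members that had 2 or more transcripts and had 5 FPKM or more in each library. In 18 of these genes (47.4%) at least 1 transcript differed by 20 percentage points or more, against 40.6% of the 5715 such genes in the table, so the frequency is near that of genes at large. By role, 7 of 11 kinase and CDK1 control genes, 4 of 8 outer kinetochore genes, 3 of 6 inner kinetochore genes, 3 of 6 checkpoint genes and 1 of 3 cytokinesis, spindle and chromosome surface genes were among them, and none of the 4 genes of the APC/C and separase. Transcripts annotated as targets of nonsense-mediated decay made up 2.89% of the members' FPKM with siHNRNPA1 and 2.84% with sicontrol.

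In MKI67 and BUB1B the difference in level lay mostly in 1 transcript. MKI67-201, which lacks a coding exon of 1080 nucleotides (chr10:128114928-128116007, minus strand), was listed at 0 with siHNRNPA1 and had 39.2 FPKM (13930 counts) with sicontrol. MKI67-202, which has that exon, had 10.2 FPKM with siHNRNPA1 and 13.1 FPKM with sicontrol, or 78.5% of that level. Ki-67 isoforms with and without this exon are known as the long and the short form. BUB1B-202 was likewise listed at 0 with siHNRNPA1 and had 58.7 FPKM (6584 counts) with sicontrol. BUB1B-201 had 15.4 FPKM with siHNRNPA1 and 19.8 FPKM with sicontrol, or 77.8% of that level. A listed 0 of a transcript may come from how reads shared by similar transcripts were divided. Whether that happened here was not tested.

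CDCA8 and BIRC5, both of the chromosomal passenger complex, had a different leading transcript in each library. CDCA8-202 made up 79.3% of the gene's FPKM with siHNRNPA1 and 10.2% with sicontrol, and CDCA8-201 20.7% with siHNRNPA1 and 89.8% with sicontrol. These 2 transcripts have the same coding exons. BIRC5-202 made up 66.6% of FPKM with siHNRNPA1 and 17.0% with sicontrol. BIRC5-203, which skips a coding exon of 118 nucleotides, a length that shifts the reading frame, made up 5.12% with siHNRNPA1 and 73.2% with sicontrol. Its FPKM was 0.909 with siHNRNPA1 and 32.6 with sicontrol, whereas BIRC5-202 had 11.8 FPKM with siHNRNPA1 and 7.59 FPKM with sicontrol.

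**Figure D5:**
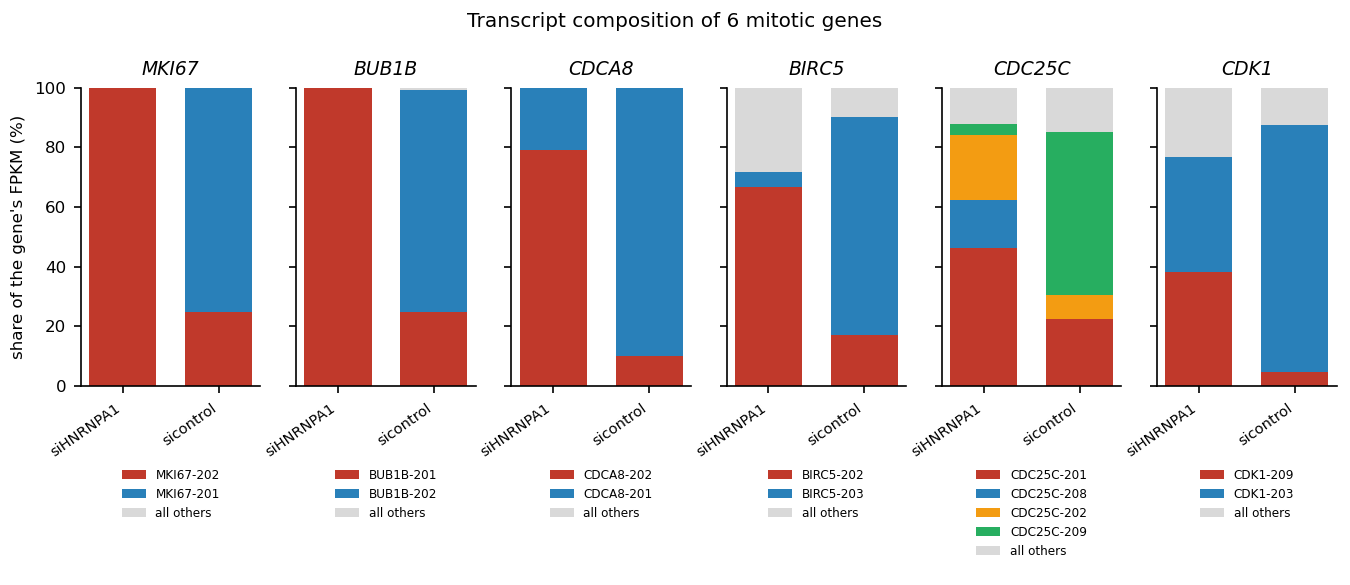
Share of each gene's FPKM held by its transcripts in the siHNRNPA1 library (left bar) and the sicontrol library (right bar) for 6 mitotic genes. Transcripts whose share differed by at least 10 percentage points are coloured and all others are grey. The leading transcript differs between the bars in MKI67, BUB1B, CDCA8, BIRC5 and CDC25C.

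CDC25C-209 made up 3.66% of its gene's FPKM with siHNRNPA1 and 54.5% with sicontrol, and CDK1-203 38.5% with siHNRNPA1 and 82.8% with sicontrol. Outside the 10 transcripts with the largest differences, and named after their values were seen, CDK1-209 held 38.1% of FPKM with siHNRNPA1 and 4.77% with sicontrol, and CDC25B-202 held 56.7% with siHNRNPA1 and 13.8% with sicontrol. Across the 18 genes, the transcript with the largest gain and the one with the largest loss differed by a whole annotated coding exon in 8, and had the same coding exons in 3. CDK1 is counted in the 8 only through an annotated segment of 7 nucleotides. It ends at chr10:60792129, and the next segment of CDK1-209 that CDK1-203 lacks begins at 60792133.

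The inclusion of such an exon was computed as the FPKM of transcripts that contain it, as a percentage of that of all transcripts that contain or skip it. For the 118-nucleotide exon of BIRC5 it was 91.7% with siHNRNPA1 and 23.2% with sicontrol. A 90-nucleotide exon of CDC25C had 63.1% with siHNRNPA1 and 32.5% with sicontrol. A 123-nucleotide exon of CDC25B went the other way, with 43.3% with siHNRNPA1 and 86.2% with sicontrol. A 159-nucleotide exon of CCNB1 had 69.3% with siHNRNPA1 and 89.9% with sicontrol, and a 62-nucleotide exon of CENPU 80.9% with siHNRNPA1 and 54.0% with sicontrol. The 1 transcript that skips the CCNB1 exon, CCNB1-206 of 780 nucleotides, also lacks the later coding segments of CCNB1-201. By counts CCNB1-206 held 13.7% of its gene with siHNRNPA1 and 3.86% with sicontrol. Inclusion was thus higher with siHNRNPA1 for some exons and lower for others.

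Coding segments from 4 of these genes are shown as read from the GENCODE 29 transcripts: the exons of 31 to 300 nucleotides whose inclusion differed by at least 30 points, and the segment that separates the BUB1B transcripts. The longer exon of MKI67, which had the largest difference, and a segment of 7 nucleotides in CDK1 are not printed. Capitals mark the segment that the other transcript of the pair lacks, and the 20 lower-case bases on each side are its neighbours in the spliced transcript. In BUB1B the segment is a 42-nucleotide extension of an exon, present in BUB1B-202 and absent from BUB1B-201.
BIRC5, chr17:78216664-78216781, plus strand, in BIRC5-202: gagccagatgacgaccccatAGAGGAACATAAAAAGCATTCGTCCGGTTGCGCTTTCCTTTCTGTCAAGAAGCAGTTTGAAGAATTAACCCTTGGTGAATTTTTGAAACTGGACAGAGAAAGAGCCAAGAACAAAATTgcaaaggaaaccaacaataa
CDC25B, chr20:3800743-3800865, plus strand, in CDC25B-201: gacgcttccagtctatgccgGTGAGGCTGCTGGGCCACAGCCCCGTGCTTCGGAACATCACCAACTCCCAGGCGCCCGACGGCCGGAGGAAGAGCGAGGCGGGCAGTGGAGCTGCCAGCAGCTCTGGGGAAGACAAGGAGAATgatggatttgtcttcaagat
CDC25C, chr5:138325815-138325904, minus strand, in CDC25C-201: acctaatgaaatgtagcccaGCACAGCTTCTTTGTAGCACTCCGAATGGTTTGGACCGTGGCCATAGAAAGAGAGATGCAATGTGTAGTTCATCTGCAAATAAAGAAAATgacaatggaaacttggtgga
BUB1B, chr15:40170122-40170163, plus strand, in BUB1B-202: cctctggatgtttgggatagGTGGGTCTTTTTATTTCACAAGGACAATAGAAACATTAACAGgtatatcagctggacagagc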

How the data were processed

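H9 RNA was made into mRNA libraries for Illumina sequencing, per the labels' protocols. The deposited table gives 95139 transcripts. The authors deposited counts, TPM and FPKM per transcript, per the file headers; the deposited counts are whole numbers and were treated as estimated counts, since transcripts of a gene share reads. Aligner and quantifier: not given in the sources used here. GRCm38 and mm10 stand in the submitters' processing notes, but the table holds human transcripts with GRCh38 positions, of which 95033 have a GENCODE 29 sequence. The table has 6 further columns of per-sample values, which were not used here.

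FPKM was summed per gene. Genes with a mean of at least 1 FPKM were kept, folds used a pseudocount of 1 FPKM, and 2-fold was the call. Only the functions for the fold and for the subtraction of like genes were tested on simulated data. Count intervals are exact (Clopper-Pearson or Poisson, 95%). Strand-specific counting is not stated: 4 members share exon sequence with another gene on the same strand and 13 on the opposite strand, so their reads may be shared. The members and lists were chosen with earlier results of these data known; the length and GC classes, the exon comparison and the exons shown were chosen after the values were seen. All members are named, with HNRNPA1, the 4 genes with the largest absolute fold in each other pathway list (1 of these is not reported here), and the 10 largest transcript share differences of at least 20 points in members with at least 10 FPKM in both libraries. FOXM1, PKMYT1 and LIN37 were named after the values were seen. Python 3.11.15, pandas 2.3.3 and scipy 1.17.1 were used.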

Additional observations from a re-analysis of the deposited data

How the results depend on the processing

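No paired analysis was possible because each condition has 1 library. The count of 22 mitotic genes at least 2-fold lower ranged from 17 to 23 under the other scalings, pseudocounts and filters, and was 13 after subtraction of the genes nearest in expression, GC content and length. The count of 2 genes at least 2-fold higher was 1 with a pseudocount of 5 FPKM, 1 with TPM and 4 with only the most abundant transcript (CENPM, CENPN, ZWINT and MAD1L1, without CENPO). The median log2 fold of -0.61 was -0.42 with a pseudocount of 5 FPKM, -0.79 with TPM, -0.47 with median ratio scaling, -0.46 for genes of at least 5 FPKM, -0.43 after the subtraction and -0.90 with only the most abundant transcript. All transcripts summed to 520633 FPKM with siHNRNPA1 and 468831 FPKM with sicontrol, a difference in totals that TPM removes. By construction a larger pseudocount shrinks folds, and median ratio scaling centres the folds of all genes. The cause of the other shifts was not tested. No called gene changed sign under any of the 9 alternatives, and 10 of the 22 lower genes stayed at least 2-fold lower in all of them: ANLN, BIRC5, BUB1, BUB1B, ECT2, INCENP, MKI67, NEK2, NUF2 and PRR11. CENPK lost the call in 4 alternatives. The median of all genes kept moved from -0.13 to -0.28 with TPM and to 0.00053 with median ratio scaling, where 18.4% of all genes passed 2-fold downward and 16.0% upward, against 21.9% and 12.4% without it. The 18 genes with a transcript share difference of 20 points were 22 with a minimum of 2 FPKM, 14 with 10 FPKM and 15 by shares of counts. Counting intervals were widest for CENPI, CENPC, CENPK and CENPA. Without replicates, the treatment and a difference between cultures cannot be told apart.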
